A study of Mus musculus with 9 samples.

Results

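The genes described here are Trp53, which encodes the transcription factor p53, and 9 of its established targets: Mdm2, Mdm4, Ccng1, Bax, Bbc3, Zmat3, Phlda3, Trp53inp1 and Aen. They were taken by name from a table of 15184 genes, and all 10 were in it. The table holds RNA-seq values from 9 libraries of mouse embryonic fibroblasts (MEFs), which are cells grown from mouse embryos. The study used them to ask what a raised level of the RNA-binding protein HNRNPK does to cells. The genotype of 3 libraries is labelled Empty vector. The genotype of the other 6 is labelled Hnrnpk_SAM, and their titles split them into SAM1 and SAM2 with 3 libraries each, called lines here.

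Per the study's methods, wild-type MEFs were transduced with both lentiviral vectors of the synergistic activation mediator system and selected with blasticidin and hygromycin. In that system a guide RNA brings a catalytically dead Cas9 and its activators to a promoter. The control vector carried a nontargeting guide. A pair of guides against Hnrnpk was used, and the labels do not say which line received which. The methods print the same sequence for the nontargeting guide as for one of the Hnrnpk guides, so which guide the control libraries carried cannot be settled from the sources used here, and this bears on every comparison with empty vector. The methods give an embryo age for wild-type MEFs. Strain and the number of transduced cultures are not given in the sources used here, so the p-values measure the spread between libraries, which may be technical. The labels name no treatment.

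The p53 protein binds DNA as a tetramer and switches on genes for cell cycle arrest, cell death, DNA repair and metabolism. Its abundance is set largely by protein turnover: Mdm2, itself a p53 target, tags p53 for destruction, and stress that blocks Mdm2 lets the protein build up without a change in its mRNA. The amount of Trp53 mRNA and the activity of the protein are therefore separate quantities, and only mRNA was measured here.

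The p53 recognition site is a pair of adjacent 10-base half-sites that read alike on both strands. Windows of 2000 bases on either side of the annotated start of each gene were searched for it in GRCm39. The C and G at the core of each half-site had to match, and at most 2 mismatches were allowed at the other positions. Matches were found in 3 of the 10 genes and in 651 of 14791 windows of the listed genes (4.4%). They are printed because they show the DNA element through which the family is defined, 5′ to 3′ on the strand of the gene, with the central bases of each half-site in capitals.
Ccng1, intron 1, chr11:40645763-40645782, minus strand, 1 mismatch: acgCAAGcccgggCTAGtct
Ccng1, upstream of the start, chr11:40646289-40646308, minus strand, 1 mismatch: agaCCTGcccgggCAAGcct
Bax, intron 1, chr7:45115998-45116017, minus strand, 2 mismatches: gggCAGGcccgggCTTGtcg
Zmat3, intron 1, chr3:32418480-32418499, minus strand, 0 mismatches: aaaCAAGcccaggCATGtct
The Zmat3 stretch, 1409 bases into the gene, matched in full. A match describes letters in a window and does not show binding. For the other 7 genes, the absence of a match says only that the window searched held no stretch within these limits.

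Values are normalized counts, that is, reads per gene divided by a size factor of the library. The libraries held 41759636 to 49026626 reads on listed genes, and the median standard deviation within groups was 0.074 on the log2 scale. Hnrnpk itself, the gene the guides address, ranged from 25058 to 26164 normalized counts in empty vector, 23619 to 24102 in SAM1 and 26221 to 26859 in SAM2. It did not separate the genotypes (log2 fold change −0.032, adjusted p = 0.642, limma), so the libraries are named by their labels. By line it was lower in SAM1 (−0.11, adjusted p = 0.00252) and at 0.044 in SAM2 (adjusted p = 0.159). The lines differed by 0.15 (SAM2 minus SAM1, adjusted p = 2.88e-04). The study reports raised Hnrnpk by qRT-PCR and Western blot in this model. All 10 fibroblast markers examined were listed. In SAM1 8 of them were lower and 2 higher than in empty vector, and in SAM2 4 were lower and 3 higher. Beside these and the marker counts below, 36.9% of all genes were called lower and 37.3% higher in SAM1. In SAM2 these shares were 35.3% and 35.2%. The sums of the fibroblast markers ran from 1022260 to 1115776 in empty vector, 843472 to 903972 in SAM1 and 1146538 to 1185208 in SAM2. Of the neural markers Tubb3 and Nes were listed and called higher in both lines (sums of 2126 to 2287, 8858 to 9048 and 8211 to 8414 in the same order), and Sox2 was not listed. Of the 3 endothelial markers, 2 were called higher in SAM1, and 1 higher and 1 lower in SAM2. Kdr went from between 176 and 238 to between 4490 and 4877 in SAM1 and between 504 and 555 in SAM2. Pecam1 went from between 10.5 and 15.3 to between 25.4 and 32.6 in SAM1 and between 9.3 and 14.8 in SAM2. Cdh5 went from between 71.6 and 84.0 to between 61.5 and 69.3 in SAM1 and between 37.1 and 69.2 in SAM2. The epithelial markers Cdh1 and Krt8 were called higher in SAM1 (sums of 42 to 50, 110 to 113 and 43 to 52), and Epcam and Krt18 were not listed. Of the leukocyte markers Cd68 was called higher in both lines (315 to 416, 512 to 541 and 543 to 583), and Ptprc, Adgre1 and Cd3e were not listed. The part of these differences in the results below was not tested.

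Trp53 mRNA rose to more than double its control level in both lines, while none of the 9 targets rose with it in the comparison of all Hnrnpk_SAM libraries with empty vector. In that comparison 2 of the 9 fell, Ccng1 and Aen, and 7 did not pass the test. At an unadjusted p below 0.05, and with edgeR or DESeq2 on recovered reads, the count of targets that rose was also 0. These checks leave the difference between the lines in the residual. Testing the mean of the lines in a 3-group model, which keeps that difference out, called 1 target higher and 5 lower. The 1 was Zmat3 (0.32, adjusted p = 1.13e-06, limma). Among all 15184 genes, 53.9% were called at an adjusted p below 0.05 (limma), 26.8% higher and 27.0% lower. The 9 targets had a median change of −0.12, and all genes one of 0.009. With values scaled to Gapdh and Actb instead, 31.5% of the genes called were higher, against 49.8% with the deposited scaling, and the median of all genes moved to −0.21. Changes are given on the log2 scale of normalized count + 1 with their standard errors.

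The Trp53 gene occupies bases 69469669 to 69482701 of chromosome 11, plus strand (GRCm39). Its normalized counts were 1079, 1114 and 1060 in empty vector, 2505, 2462 and 2452 in SAM1, and 2357, 2404 and 2332 in SAM2. All Hnrnpk_SAM libraries lay above all controls, as they did for 25.9% of all genes, and no SAM2 library reached the SAM1 range. The difference on the log2 scale was 1.16 ± 0.039 (SE, 6 against 3 libraries, adjusted p = 3.61e-08, limma), a 2.23-fold rise. SAM1 gave 1.19 ± 0.034 (adjusted p = 2.96e-12) and SAM2 1.12 ± 0.034 (adjusted p = 8.12e-12). The lines differed by −0.065 (SAM2 minus SAM1, 95% confidence interval −0.14 to 0.0084, adjusted p = 0.115), which did not pass the test. This difference depends on the scaling: it passed at −0.13 under quantile normalization (adjusted p = 0.00482) and turned to 0.32 relative to Gapdh and Actb. By size of change Trp53 ranked 1290 of 15184 genes, so 91.5% of genes had a lower value.

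**Figure D1:**
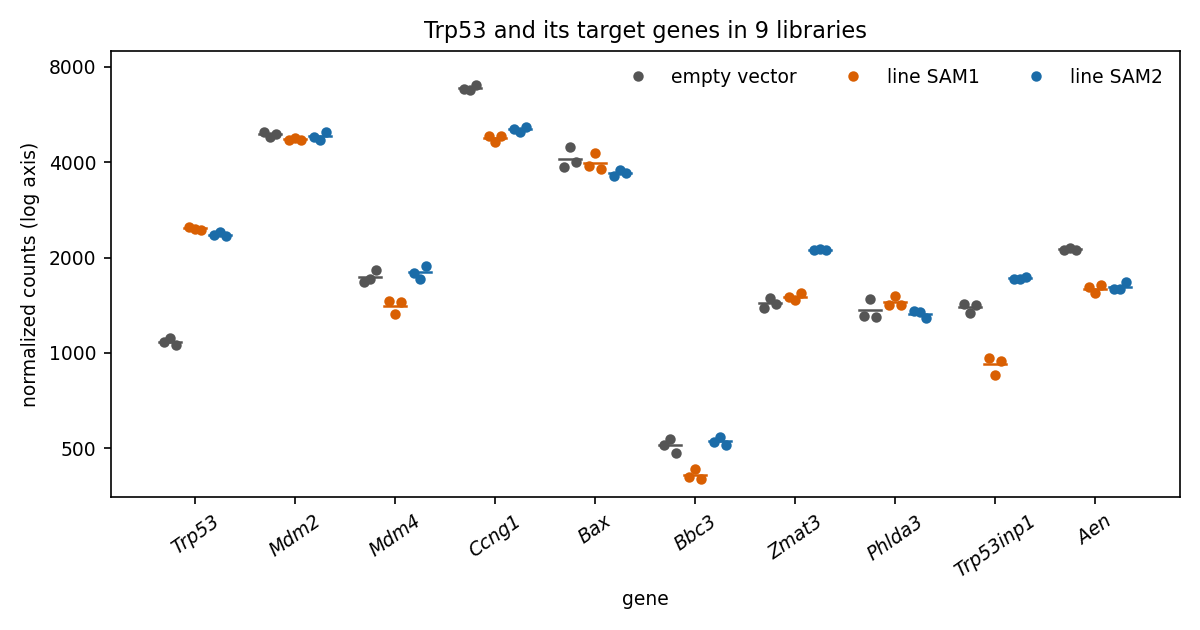
Normalized counts (log axis) of Trp53 and 9 target genes in the 3 empty vector, 3 SAM1 and 3 SAM2 libraries. Points are libraries and short lines are group means. Trp53 moves from between 1060 and 1114 to between 2332 and 2505, whereas Mdm2 stays between 4696 and 4993 in all 9 libraries.

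Trp53 shares sequence with a neighbour on the other strand, Wrap53, which encodes a factor of telomerase assembly. Their exons share 263 bases, and whether the counting used strand is not stated, so reads from the shared stretch cannot be assigned here. Wrap53 had 391, 412 and 345 normalized counts in empty vector, 495, 507 and 473 in SAM1, and 498, 530 and 499 in SAM2. All Hnrnpk_SAM libraries were above all controls (log2 fold change 0.39, adjusted p = 0.00101, limma).

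The genes around Trp53 were also higher. Among the 40 listed genes nearest to it, which span 0.813 Mb, 27 were called higher and 2 lower, with a median log2 fold change of 0.44. Trp53 exceeded 34 of these 40 neighbours. Within 10 Mb on either side, 160 of 280 listed genes were called higher and 11 lower (median 0.35), whereas the 877 genes farther away on the chromosome had a median of −0.093, with 190 higher and 311 lower. Medians within 10 Mb were 0.30 in SAM1 and 0.40 in SAM2. After subtraction of the median of its 40 neighbours in each library, the Trp53 difference was 0.69 (adjusted p = 7.8e-06, limma), lower than the value without it and still past the threshold. The same subtraction gave −0.13 for Wrap53 (adjusted p = 0.143). Chromosome content was not measured in these libraries. By karyotype the study reports gained chromosomes and chromosomal abnormalities in its HNRNPK-overexpressing MEFs, and its text does not name the chromosomes gained. The part of this in the values around Trp53 was not tested.

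**Figure D2:**
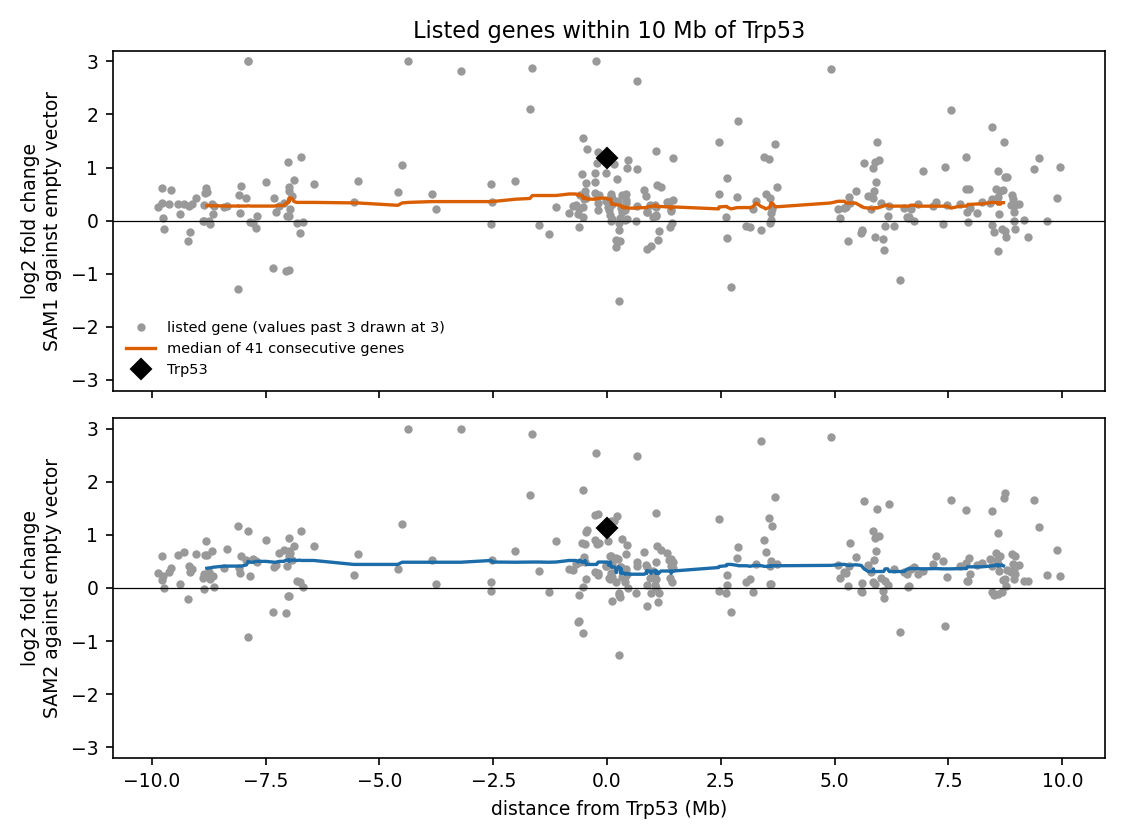
Log2 fold change of listed genes (grey points) against their distance from Trp53 in Mb, for SAM1 (top) and SAM2 (bottom) against empty vector. The coloured line is the running median of 41 consecutive genes and the diamond is Trp53. The running median lies above 0 across the plotted region in both lines, and Trp53 lies above it.

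Mdm2, Mdm4 and Ccng1 act back on p53. Mdm2 is the main ubiquitin ligase for p53. It had 4988, 4822 and 4912 normalized counts in empty vector, 4702, 4765 and 4717 in SAM1, and 4795, 4696 and 4993 in SAM2. The SAM1 libraries were all below the controls and the SAM2 libraries overlapped them. Its change was −0.039 ± 0.033 (95% confidence interval −0.11 to 0.036, adjusted p = 0.350, limma), so a rise of Mdm2 of the size seen for Trp53 lies outside its interval. Neither line differed from empty vector past the threshold (adjusted p = 0.127 in SAM1 and 0.498 in SAM2), but relative to Gapdh and Actb Mdm2 was lower in SAM1 (−0.46, adjusted p = 4.61e-09), and centred on neighbours in SAM2 (−0.11, adjusted p = 0.0125).

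Mdm4, the relative of Mdm2 that binds and inhibits p53 without being an efficient ligase, had 1669, 1714 and 1821 normalized counts in empty vector, 1454, 1324 and 1451 in SAM1, and 1792, 1717 and 1884 in SAM2. It fell in SAM1, where no library reached the control range, while SAM2 overlapped the controls. It stood at −0.30 on the log2 scale in SAM1 (adjusted p = 1.18e-04, limma) and 0.051 in SAM2 (adjusted p = 0.378). The difference between the lines, 0.35, passed the test (adjusted p = 5.12e-05). Centred on its chromosome, Mdm4 was at −0.081 in SAM1 and no longer past the threshold (adjusted p = 0.155), while SAM2 was called higher at 0.24 (adjusted p = 8.14e-04).

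Ccng1 encodes cyclin G1, a strong p53 target that acts with a phosphatase on Mdm2. It had 6799, 6751 and 7026 normalized counts in empty vector, 4825, 4636 and 4849 in SAM1, and 5105, 4978 and 5185 in SAM2. Both lines lay below every control library, as they did for 27.2% of all genes. Ccng1 is the gene with the pair of printed matches. It fell by 0.48 on the log2 scale (adjusted p = 1.20e-05, limma), by 0.52 in SAM1 and by 0.43 in SAM2. The lines differed by 0.094 (adjusted p = 0.0181), a call that was lost without SAM1 replicate 2 (0.073, adjusted p = 0.0591), without SAM2 replicate 1 (0.091, adjusted p = 0.0568) or without SAM2 replicate 3 (0.080, adjusted p = 0.0789). Exons of Ccng1 share 114 bases with Nudcd2 on the other strand, which stood at −0.19 on the log2 scale (adjusted p = 0.0597). The 40 listed genes nearest to Ccng1 had a median of −0.002, and 37 of them had a higher value than Ccng1.

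Bax, Bbc3, Trp53inp1 and Aen belong to the cell death arm. Bax is the protein that opens the outer mitochondrial membrane. It had 3852, 4473 and 3999 normalized counts in empty vector, 3887, 4282 and 3795 in SAM1, and 3615, 3789 and 3694 in SAM2. SAM1 overlapped the controls, and SAM2 lay below them. On the log2 scale it stood at −0.095 with the lines together (adjusted p = 0.235, limma), −0.042 in SAM1 (adjusted p = 0.507) and −0.15 in SAM2 (adjusted p = 0.0280). The SAM2 call was lost without empty vector replicate 2 (−0.086, adjusted p = 0.124), without SAM2 replicate 1 (−0.13, adjusted p = 0.0928) or without SAM2 replicate 3 (−0.15, adjusted p = 0.0659). The 40 genes around Bax had a median of −0.28, and relative to that median Bax stood at 0.17 (adjusted p = 0.0686). In SAM1 the same subtraction turned the value to 0.27 (adjusted p = 1.9e-05).

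Bbc3 encodes PUMA, which frees Bax to act. It had 513, 536 and 484 normalized counts in empty vector, 405, 429 and 400 in SAM1, and 524, 542 and 510 in SAM2. As with Mdm4, all SAM1 libraries were below the controls and SAM2 overlapped them. Bbc3 fell by 0.31 on the log2 scale in SAM1 (adjusted p = 2.50e-04, limma), and SAM2 gave 0.043 (adjusted p = 0.521). The lines differed by 0.35 (adjusted p = 1.40e-04). Genes of chromosome 7, which holds Bbc3, Bax and Aen, had a median of −0.27 in SAM1, and centred on it Bbc3 was at −0.030 (adjusted p = 0.646). In SAM2 Bbc3 was called higher when centred on chromosomes (0.27, adjusted p = 6.88e-04) or on neighbours (0.21, adjusted p = 0.00505).

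Trp53inp1, a nuclear protein that promotes p53-dependent death and autophagy, moved in opposite directions in the lines. It had 1425, 1339 and 1418 normalized counts in empty vector, 965, 849 and 946 in SAM1, and 1712, 1716 and 1733 in SAM2. The 3 groups did not overlap. The log2 fold change was −0.60 in SAM1 (adjusted p = 1.19e-07, limma) and 0.30 in SAM2 (adjusted p = 9.75e-05). At 0.90 (adjusted p = 5.53e-09) it had the widest difference between the lines of the 10 genes. Taking the lines together hid both changes (log2 fold change −0.15, adjusted p = 0.655).

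Aen encodes a p53-induced exonuclease that degrades DNA in dying cells. It had 2109, 2146 and 2109 normalized counts in empty vector, 1609, 1544 and 1633 in SAM1, and 1588, 1597 and 1671 in SAM2. Both lines lay below the controls and overlapped each other. It fell by 0.40 on the log2 scale (adjusted p = 1.67e-05, limma), by 0.41 in SAM1 and by 0.39 in SAM2. Its 40 neighbours on chromosome 7 had a median of −0.28, 22 of them called lower, and after subtraction of that median Aen was at −0.11 and no longer past the threshold (adjusted p = 0.069). Aen also shares 1214 exonic bases with an annotated noncoding RNA on the other strand, Gm73250, which has no values in the table.

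Zmat3, an RNA-binding protein that acts on splicing, rose in SAM2. It had 1391, 1488 and 1425 normalized counts in empty vector, 1505, 1464 and 1547 in SAM1, and 2114, 2126 and 2108 in SAM2. SAM1 overlapped the controls, and every SAM2 library was above every other library. On the log2 scale it was at 0.069 in SAM1 (adjusted p = 0.110, limma) and 0.56 in SAM2 (adjusted p = 1.89e-08), with a difference of 0.49 between them (adjusted p = 1.38e-07). Without empty vector replicate 2, SAM1 gave 0.096 (adjusted p = 0.0377). With the lines together it was 0.32 (adjusted p = 0.0922), and 0.37 without SAM1 replicate 2 (adjusted p = 0.0454). Tested as the mean of the lines in the 3-group model, the value of 0.32 passed (adjusted p = 1.13e-06).

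Phlda3, which competes with the kinase Akt for membrane lipids, had 1307, 1480 and 1300 normalized counts in empty vector, 1420, 1511 and 1412 in SAM1, and 1352, 1343 and 1292 in SAM2. All groups but SAM1 and SAM2 overlapped. With the lines together its change was 0.028 (95% confidence interval −0.11 to 0.17, adjusted p = 0.731, limma). Centred on its chromosome, Phlda3 was called higher with the lines together (0.23, adjusted p = 0.0198), in SAM1 (0.31, adjusted p = 1.59e-04) and in SAM2 (0.15, adjusted p = 0.0224), whereas in SAM2 it was called lower when centred on neighbours (−0.14, adjusted p = 0.032). Without empty vector replicate 2, the highest control, SAM1 was called higher (0.15, adjusted p = 0.00776). Phlda3 had a difference of −0.12 between the lines (adjusted p = 0.0561), which passed the test without empty vector replicate 1 (adjusted p = 0.0477) or replicate 2 (adjusted p = 0.0154).

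Counted by line, no target rose and 5 fell in SAM1 (Mdm4, Ccng1, Bbc3, Trp53inp1 and Aen), where 74.3% of all genes were called, 37.3% higher and 36.9% lower. In SAM2, 2 rose (Zmat3 and Trp53inp1) and 3 fell (Ccng1, Bax and Aen), against 35.2% and 35.3% of all genes (70.5% in all). Between the lines, 5 of the 9 targets were higher in SAM2 (Mdm4, Ccng1, Bbc3, Zmat3 and Trp53inp1) and none was lower, against 31.1% and 29.2% of all genes (60.3% in all). The count of 0 lower depends on the setting: 1 target, Phlda3, was lower at an unadjusted p below 0.05 and with edgeR, none with DESeq2, and both Bax and Phlda3 under quantile normalization (adjusted p = 0.0313 and 0.0169). These counts depend on the scaling. Relative to Gapdh and Actb, 9 of 9 targets were lower in SAM1, and 9 of 9 were higher in SAM2 than in SAM1. Centred on chromosomes, 2 were higher and 3 lower in SAM1, 5 higher and 2 lower in SAM2, and 4 higher and 2 lower in SAM2 than in SAM1. Centred on neighbours, the counts were 1 higher and 3 lower in SAM1, 3 higher and 4 lower in SAM2, and 3 higher and 3 lower between the lines. With the deposited scaling, median log2 fold changes of the 9 targets were −0.30 in SAM1 and −0.024 in SAM2. The comparisons of each line with empty vector share the same control libraries.

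**Figure D3:**
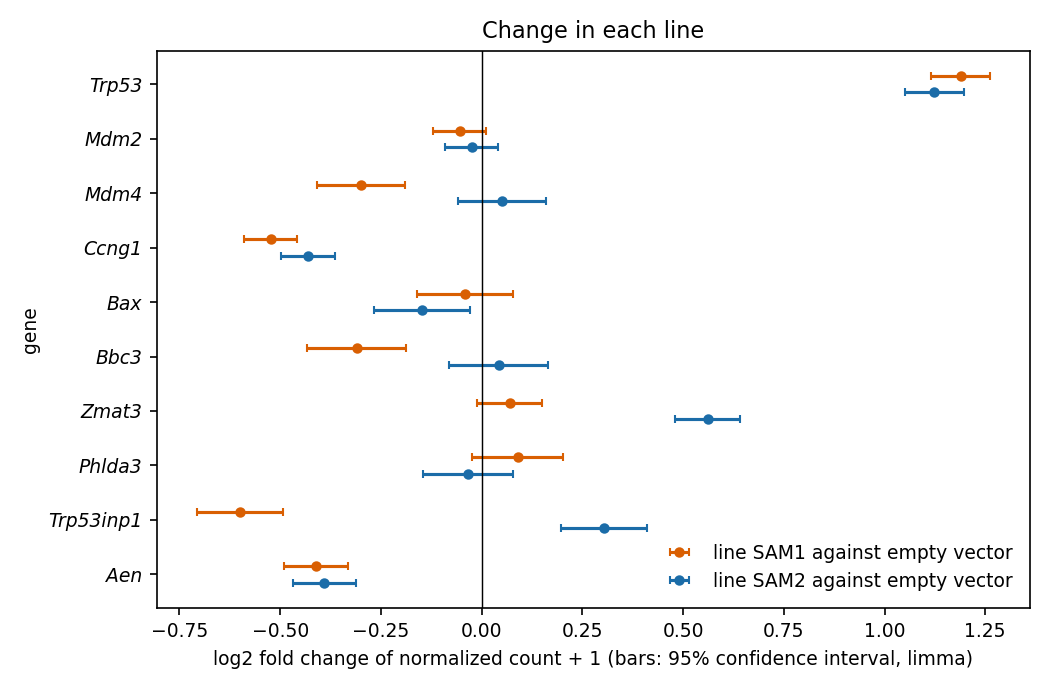
Log2 fold change of each gene in SAM1 and in SAM2 against the 3 empty vector libraries, with 95% confidence intervals from limma. Trp53 is the only gene above 1 in both lines. The Trp53inp1 intervals lie on opposite sides of 0, and the Zmat3 interval lies above 0 in SAM2 only.

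The ratio of each target to Trp53 in the same library does not depend on the size factor. All 9 ratios fell in both lines, as did those of 83.2% of all other genes in the comparison of genotypes, 84.2% in SAM1 and 87.7% in SAM2, so 9 of 9 stands near the share of all genes. The Mdm2 to Trp53 ratio was 4.53 ± 0.174 (SD, n = 3) in empty vector, 1.91 ± 0.0307 in SAM1 and 2.04 ± 0.0943 in SAM2. The Ccng1 ratio went from 6.33 ± 0.288 to 1.93 ± 0.0471 and 2.15 ± 0.0773, the widest change with the lines together (log2 difference −1.63, adjusted p = 3.61e-09, limma). Zmat3 had the narrowest change with the lines together, from 1.32 ± 0.03 to 0.609 ± 0.0192 and 0.895 ± 0.01 (log2 difference −0.84, adjusted p = 6.59e-04). In SAM2 the Zmat3 ratio thus kept most of its control value, while in SAM1 the Trp53inp1 ratio went from 1.29 ± 0.0743 to 0.372 ± 0.0235.

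Per kilobase of the canonical transcript, the 10 genes span a wide range of levels. In empty vector Bax was highest at 4210 normalized counts per kb, followed by Ccng1 (1950) and Mdm2 (1580). Trp53 (586) and Phlda3 (594) came next and overlapped between libraries. The remaining genes lay between 182 (Zmat3) and 244 (Mdm4), and among them the libraries of Bbc3, Aen and Zmat3 overlapped. In SAM1 Trp53 reached 1340 and in SAM2 1280, below Bax and Mdm2 in both lines. It overlapped Ccng1 between libraries in SAM1 and lay below it in SAM2.

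The rest of the p53 pathway was examined through a list of 41 other targets in the table. With the lines together 12 were called higher, 13 lower and 16 did not pass, against 26.8% and 27.0% of all genes, and the list's median log2 fold change was −0.085. Relative to Gapdh and Actb the counts were 3 higher and 14 lower. With each gene centred on its own chromosome, 8 were higher and 11 lower. For the mean of the lines, 18 were higher and 20 lower. Of the 12 cell death genes 2 were higher and 6 lower, and of the 5 DNA repair genes 3 were higher and 1 lower. Of the 8 growth arrest genes 2 were higher and 2 lower. The 12 metabolism and stress genes had 4 higher and 2 lower, and the 4 genes of feedback on p53 had 1 and 2. Cdkn1a, the gene of the cell cycle inhibitor p21, had 1563, 1647 and 1491 normalized counts in empty vector, 1267, 1353 and 1366 in SAM1, and 1209, 1197 and 1294 in SAM2. No Hnrnpk_SAM library reached the control range, and Cdkn1a fell by 0.29 on the log2 scale (adjusted p = 0.00209, limma). By Western blot the study reports higher p53 protein in its HNRNPK-overexpressing cells, and raised p21 and p16 protein in Hnrnpk_SAM cells after irradiation. Those are protein levels, and the labels of the libraries here name no irradiation.

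The widest fall among these targets was that of Perp, a membrane protein of cell junctions and p53-dependent death, from 4272, 4727 and 4569 normalized counts in empty vector to 551, 568 and 522 in SAM1 and 422, 397 and 427 in SAM2. This was a log2 fold change of −3.24 (adjusted p = 7.30e-08, limma). Fas, a death receptor, fell by 1.28, Tap1, a peptide transporter of antigen presentation, by 1.16, and Dram1, a lysosomal protein of autophagy, by 0.84. The widest rises were those of Tnfrsf10b, another death receptor (0.80), Ephx1, an epoxide hydrolase (0.72), Ddb2, a sensor of ultraviolet damage (0.67), and Abhd4, a lipid hydrolase (0.63). Ddb2 and Abhd4 did not pass relative to Gapdh and Actb (adjusted p = 0.0603 and 0.0799). After centring on the 40 nearest genes, Tnfrsf10b stood at −0.12 (adjusted p = 0.273) and Abhd4 at −0.0075 (adjusted p = 0.924).

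**Figure D4:**
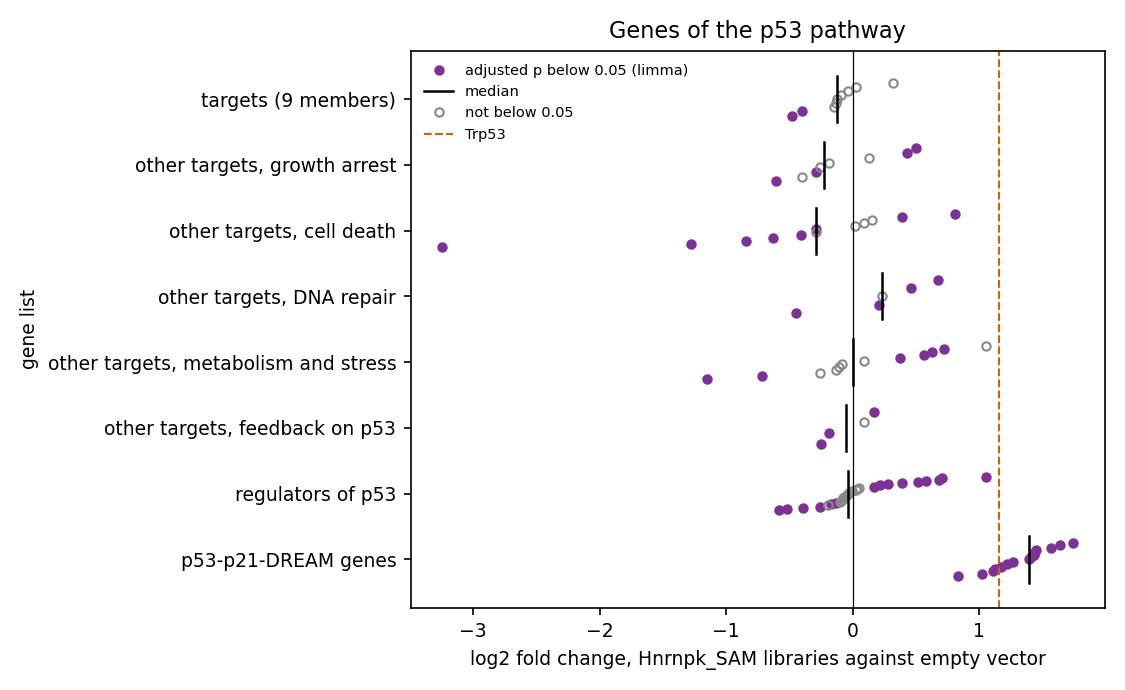
Log2 fold change of genes of the p53 pathway, Hnrnpk_SAM against empty vector libraries. Each point is a gene, filled where the adjusted p (limma) was below 0.05, black bars are list medians and the dashed line is Trp53 at 1.16. Other targets spread on both sides of 0 (Perp at −3.24 is the leftmost), and all 15 p53-p21-DREAM genes lie to the right of 0.

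Genes repressed through p53, p21 and the DREAM complex, which holds cell cycle genes silent, were higher throughout: 15 of 15 were called higher with the lines together and in each line (26.8% of all genes with the lines together, 37.3% in SAM1 and 35.2% in SAM2), with a median log2 fold change of 1.39 with the lines together. Ccna2, a cyclin of S and G2 phase, went from 1825, 1976 and 1880 normalized counts to 5244, 5187 and 5135 in SAM1 and 5027, 5063 and 5031 in SAM2 (log2 fold change 1.43, adjusted p = 8.10e-09, limma). Plk1, a mitotic kinase, rose by 1.22 (adjusted p = 2.63e-08). A rise of mitotic genes in these libraries was known when the list was written, so its count is not independent evidence.

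Of 29 regulators of p53, 9 were called higher, 6 lower and 14 did not pass the test, beside 26.8% and 27.0% of all genes. The 3 with the smallest adjusted p among those higher were Chek1, the kinase that acts when DNA replication stalls (0.52, adjusted p = 8.95e-06, limma), Setd7, a lysine methyltransferase (0.71, adjusted p = 2.81e-05), and Ncl, the nucleolar protein nucleolin (0.28, adjusted p = 2.29e-04). Relative to Gapdh and Actb, Chek1 (adjusted p = 0.0854) and Ncl (adjusted p = 0.684) did not pass. Smyd2, a methyltransferase that represses p53, fell by 0.52 (adjusted p = 9.16e-05), but centred on neighbours it was at −0.15 and did not pass (adjusted p = 0.0641). Npm1, a nucleolar chaperone, fell by 0.40 (adjusted p = 7.43e-04), and Cdkn2a, whose ARF product blocks Mdm2, fell by 0.58 (adjusted p = 0.00102). The counts do not separate the Cdkn2a transcripts for ARF and p16. None of the 5 ubiquitin ligases and deubiquitinases examined passed the test with the lines together, whether by limma, at an unadjusted p below 0.05 (0), by edgeR or by DESeq2. By line, in SAM1 1 was higher (Usp7, 0.086) and 2 lower (Usp10, −0.17, and Ube4b, −0.16), and in SAM2 1 was lower (Trim28, −0.085). Among all genes, 74.3% were called in SAM1 and 70.5% in SAM2, so these counts do not exceed the share of all genes. These 4 were named after their values were seen.

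Rpl5 and Rpl11, the ribosomal proteins that hold Mdm2 back when ribosome assembly fails, differed by line. Rpl5 fell by 0.40 in SAM1 (adjusted p = 1.24e-06, limma) and was at 0.0094 in SAM2 (adjusted p = 0.852). Rpl11 was at 0.059 in SAM1 (adjusted p = 0.484) and fell by 0.25 in SAM2 (adjusted p = 0.00880). Copies of ribosomal protein genes are common in the genome, so both counts are uncertain. Trp63, a p53 relative, had 26, 19 and 15 normalized counts in empty vector, 29, 26 and 18 in SAM1, and 58, 62 and 64 in SAM2, where it was higher (log2 fold change 1.61, adjusted p = 2.62e-05).

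The genes whose log2 values over the 9 libraries were most like those of Trp53 were Troap (Pearson r = 0.9994), Gtse1 (0.9993), Ccna2 (0.9992), Nes (0.9992) and Cdh3 (0.9991). The 9 points fall into the control and Hnrnpk_SAM groups, so r reflects that step and is given as a description. All 5 changed more than Trp53, from 1.43 for Ccna2 to 2.02 for Nes. No target of p53 among the 9 was in this group.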

How the data were processed

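The deposited values were normalized counts (unit: signal, a count divided by the library's size factor). Per the study's methods, the authors sequenced polyA+ RNA (directional kit, paired reads of 43 bases), aligned to GRCm39 with TopHat2 and Bowtie2 after FastQC 0.11.0, counted with HTSeq and normalized with DESeq2, keeping genes over 10 in a minimum share of libraries. Reads that map to several places, and the strand setting, could affect genes with copies or overlaps.

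Values were tested as log2(value + 1) with limma 3.58.1 (trend, R 4.3.3) over all 15184 genes p-values adjusted by Benjamini-Hochberg and called below 0.05. The 6 Hnrnpk_SAM libraries were compared with 3 empty vector libraries in a 2-group model, and each line in a 3-group model. Alternatives were another pseudocount, low-value filters, other scalings, edgeR 4.0.16 and DESeq2 1.42.0 on recovered reads (100% of values were whole multiples of a library's step within 0.01), left-out libraries and centring on neighbours. The tests were checked on simulated data. Coordinates came from GENCODE for the 14791 names with a single match (68 had several and 325 none). The release was later than the one the study counted with. An overlapping gene named here may therefore be absent from the annotation used for counting. No sample column was left unused (0).

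The genes and lists were chosen with earlier results of these data known. Genes named beside the 10 were set by rule: the 4 widest rises and falls among other targets and Cdkn1a, the 3 smallest adjusted p in each direction among regulators and 6 fixed regulators (Hnrnpk, Rpl5, Rpl11, Npm1, Cdkn2a, Wrap53), 2 DREAM genes, p53 relatives (Trp73 is not in the table), the 5 genes most like Trp53, and overlapping genes. The overlapping noncoding RNA of Aen was named after values were seen.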

Additional observations from a re-analysis of the deposited data

Results flagged for a closer look

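Of the 10 genes, 5 changed differently in the lines by the test of the difference itself (SAM2 minus SAM1, limma over 15184 genes, 60.3% of which were called). The difference was 0.90 for Trp53inp1, 0.49 for Zmat3, 0.35 for Mdm4, 0.35 for Bbc3 and 0.094 for Ccng1, all higher in SAM2. For Trp53inp1, Zmat3, Mdm4 and Bbc3 every SAM2 library was above every SAM1 library by more than the spread within either line. Bbc3, Trp53inp1 and Zmat3 also stood apart from their surroundings. Of the 40 genes nearest to each, 39 for Bbc3 and Trp53inp1 and 38 for Zmat3 had a lower difference between the lines. The 40 genes around Mdm4 had a median difference of 0.17, and after subtraction of it Mdm4 stood at 0.13 and no longer passed (adjusted p = 0.0527). Ccng1 stood at 0.0045 after the same subtraction (adjusted p = 0.923). Which guide each line carried is not given by the labels, so a difference between guides and one between cultures cannot be told apart.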

How the results depend on the processing

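The rise of Trp53 kept its direction and its call in every alternative run, from 0.69 to 1.18 with the lines together and from 1.14 to 1.18 when a library was left out. The value of 0.69 came from centring on the 40 nearest genes, an alternative chosen after seeing the data. Counts and values that moved were these. Between the lines (SAM2 minus SAM1) Trp53 was past the threshold at −0.126 under quantile normalization, −0.119 centred on chromosomes and −0.151 centred on neighbours, and stood at 0.322 relative to Gapdh and Actb, which turned the direction. Testing the mean of the lines in the 3-group model, which keeps their difference out of the residual, called 1 target higher and 5 lower, and 20 of the other targets lower. Centring on chromosomes called 1 target higher and centring on neighbours 1 lower. Relative to Gapdh and Actb 3 of the other targets were higher. Leaving out a library gave 0 to 1 targets higher, 2 lower, 8 to 11 other targets higher and 12 to 14 lower. Of 252 values of these main results under an alternative, 241 stayed on their side of the threshold or within 1.5 times the count.

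Among single genes, directions turned as follows, where the deposited scaling gave small values in most cases. Under quantile normalization Mdm2 stood at 0.0274 with the lines together, 0.0477 in SAM1, 0.00714 in SAM2 and −0.0406 between the lines, Bax at 0.0323 in SAM1, Bbc3 at −0.0403 in SAM2, Phlda3 at −0.00371 with the lines together, Aen at −0.0226 between the lines, and Hnrnpk at 0.159, where it passed the test (adjusted p = 0.0199, limma). Relative to Gapdh and Actb, Bax stood at 0.280 between the lines, Zmat3 at −0.338 in SAM1, and Phlda3 at −0.186 with the lines together, −0.318 in SAM1 and 0.264 between the lines. Centred on chromosomes, Mdm2 stood at −0.0133 between the lines, Mdm4 at 0.0778, Bax at 0.161, 0.239 in SAM1 and 0.0823 in SAM2, Bbc3 at 0.122, Zmat3 at −0.0126 in SAM1, Phlda3 at 0.151 in SAM2, Aen at −0.0291 between the lines, Hnrnpk at 0.0839 and Rpl11 at 0.0469. Centred on neighbours, Mdm2 stood at 0.0291 in SAM1 and −0.136 between the lines, Bax at 0.169, 0.271 in SAM1 and 0.0664 in SAM2, Bbc3 at 0.00567, Phlda3 at −0.0492, Trp53inp1 at 0.059, Aen at −0.0561 between the lines, Tnfrsf10b at −0.122, Abhd4 at −0.00749, Hnrnpk at 0.00323 and Wrap53 at −0.126. With a library left out, Bax in SAM1 ranged from −0.094 to 0.0211, Phlda3 from −0.00478 to 0.0886 with the lines together and from −0.0664 to 0.027 in SAM2, and Aen from −0.00223 to 0.0379 between the lines. Besides Hnrnpk, these turned values passed the test (limma). Relative to Gapdh and Actb they were Bax between the lines (adjusted p = 3.09e-04), Zmat3 in SAM1 (3.54e-06), and Phlda3 in SAM1 (6.22e-05) and between the lines (4.2e-04). Centred on chromosomes they were Bax in SAM1 (0.00116) and Phlda3 in SAM2 (0.0224). Centred on neighbours they were Mdm2 between the lines (0.00335) and Bax in SAM1 (1.89e-05). The causes were not tested. Of 1232 single-gene values under an alternative, 1123 kept direction and side of the threshold, 42 newly passed it and 23 no longer did. The 44 that turned direction were counted apart, whether they passed or not. The ratio to Trp53 was not run with edgeR or DESeq2.

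Same-numbered libraries of different groups were weakly alike. The 9 correlations of their deviations from the group means ran from 0.00237 to 0.117, with a mean of 0.0531. The 18 pairs with different numbers had a mean of −0.0265. What the number stands for is not given by the labels. With the replicate number as a block, Trp53 stood at 1.16 (adjusted p = 3.91e-06, limma), 2 targets and 13 of the other targets were lower, 0 targets and 8 of the other targets were higher, and 9 of 9 targets fell relative to Trp53. The block brought Bax (−0.11, adjusted p = 0.00984) and Phlda3 (−0.12, adjusted p = 0.0144) past the threshold between the lines.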
